A study of Mus musculus with 90 samples.

Results

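Small nucleolar RNAs (snoRNAs) and the genes that carry them were followed through single cells grown from CD41-positive haematopoietic stem cells of mouse bone marrow. The members were chosen by symbol alone: the rows named Snord or Snora with a number, the rows named Snhg with a number, and Gas5. This gave 131 of the 35869 rows of the table, of which 17 were host genes and 114 were snoRNA rows (76 Snord and 38 Snora). All mice carried floxed Runx1 alleles (RUNX1f/f) and had received 4 poly(I:C) injections. Mice with MxCre1+/- are the knockout (KO) and mice with MxCre1-/- the control, called wild type (WT) here although it was floxed and injected too. Stem cells were sorted 4 weeks after injection and cultured for 2 days, and single cells with a megakaryocyte-like (MK) or other (NMK) look were taken for SMART-Seq, giving 1 library per cell. The table without outliers held 15 WT cells, 9 of them NMK and 6 MK, and 18 KO cells, 13 of them NMK and 5 MK. Mx1-Cre is switched on by the interferon response to poly(I:C) and is not restricted to stem cells, and the labels give neither age nor strain.

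snoRNAs guide chemical changes of ribosomal and other RNAs in the nucleolus. C/D box snoRNAs, mostly the Snord genes, guide ribose methylation with the methyltransferase fibrillarin (Fbl), and H/ACA box snoRNAs, mostly the Snora genes, guide pseudouridylation with dyskerin (Dkc1). Most mammalian snoRNAs are cut out of the introns of host genes, which are either protein-coding (often ribosomal protein genes) or, like Gas5 and the Snhg genes, noncoding. The spliced exons of noncoding hosts are commonly removed by nonsense-mediated decay when they are translated. Megakaryocytes enlarge and build up their cytoplasm before releasing platelets.

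The following sequences show the kinds of snoRNA behind the rows, with those of the noncoding hosts Gas5, Snhg1, Snhg6 and Snhg3 first, then Snord118, which has no holding gene, and Snord49b, held by 2410006H16Rik. They are GENCODE M21 transcripts on GRCm38, printed 5′ to 3′ as DNA, with the C box letters TGATGA and the last CTGA (D box letters) in capitals for Snord genes and the last ACA in capitals for Snora genes.
Snord47: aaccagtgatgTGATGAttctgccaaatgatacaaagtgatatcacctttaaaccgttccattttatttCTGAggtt
Snord22: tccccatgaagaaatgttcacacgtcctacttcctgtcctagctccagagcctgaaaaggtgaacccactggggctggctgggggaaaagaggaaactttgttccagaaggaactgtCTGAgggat
Snord87: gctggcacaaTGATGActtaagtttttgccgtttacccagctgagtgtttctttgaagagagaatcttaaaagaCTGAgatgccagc
Snora73a: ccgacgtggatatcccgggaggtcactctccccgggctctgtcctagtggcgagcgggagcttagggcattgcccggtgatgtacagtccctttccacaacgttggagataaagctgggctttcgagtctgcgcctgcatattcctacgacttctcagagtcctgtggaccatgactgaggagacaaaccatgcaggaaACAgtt
Snora73b: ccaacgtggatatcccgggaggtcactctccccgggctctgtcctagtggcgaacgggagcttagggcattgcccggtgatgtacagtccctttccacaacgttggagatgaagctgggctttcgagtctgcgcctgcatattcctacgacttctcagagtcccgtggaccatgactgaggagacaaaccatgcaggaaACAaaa
Snord118: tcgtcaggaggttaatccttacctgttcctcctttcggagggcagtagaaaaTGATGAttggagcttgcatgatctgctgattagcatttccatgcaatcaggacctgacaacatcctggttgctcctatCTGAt
Snord49b: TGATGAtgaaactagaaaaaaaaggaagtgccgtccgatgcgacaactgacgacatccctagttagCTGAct

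Snord47 lies at chr1:161038082-161038158 on the plus strand and overlaps an annotated exon of Gas5. Snord22, at chr19:8725866-8725991 on the plus strand, overlaps an exon of Snhg1, and Snord87, at chr1:9942463-9942549 on the minus strand, lies in an intron of Snhg6. Snora73a (chr4:132352775-132352979) and Snora73b (chr4:132352322-132352526), on the minus strand, are both held by Snhg3. These Snhg3 snoRNAs are 205 bases long and shared 198 bases (96.6%), position by position, so that reads could be split between them by the counting step. Snord118 (chr11:69073427-69073561, plus strand), which acts in ribosomal RNA maturation, had no holding gene among the rows. Snord49b is at chr11:62603079-62603150 on the plus strand. The letters TGATGA were found on the RNA strand in 51 of the 74 annotated Snord members (68.9%) and in 75.3% of all 97 Snord transcripts of the annotation, and CTGA was found in all of them. ACA ended within 6 bases of the 3′ end in 36 of 38 Snora members (94.7%) and in 95% of all 40 Snora transcripts. Snord22 is among those without TGATGA, which says only that these letters are not in this annotated transcript.

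The cell labels were checked against megakaryocyte genes. The summed level of 9 megakaryocyte markers was 13143 to 21613 TPM (transcript abundance scaled to gene length and to the same total in every cell) in WT MK cells and at most 1508 TPM in NMK cells of either genotype. Among KO MK cells, 3 cells (1B, B1-3 and 1A) had Pf4, a platelet chemokine, at 13752 to 26885 TPM, while B1-4 and 2 had 65.8 and 213.7 TPM, so those 2 cells go against the MK label at the RNA level. Runx1 itself was at 0 to 15.7 TPM in WT NMK, 7.6 to 22.2 in WT MK, 0 to 41.5 in KO NMK and 8.9 to 47.5 in KO MK cells. A value for the whole gene also counts reads outside the floxed segment, which the labels do not name, so it does not check the deletion, and the groups are called by their labels. The 5 WT MK libraries without a B1 title prefix correlated at r = 0.972 to 0.981 across genes, above every pair across groups (at most 0.956), and the sixth, B1-1, correlated with them at 0.934 to 0.948; whether they share material was not tested. KO NMK libraries B1-1b and B1-2a had a mean log2(TPM + 1) of 3.71 and 1.76 over 12 housekeeping genes, against 7.58 or more in the other WT and KO NMK cells. Genes above 0 numbered 14089 to 15252 in WT MK, 11896 to 14487 in KO MK, 5475 to 11715 in WT NMK and 3011 to 10987 in KO NMK cells. Read depth is unknown, and fewer captured molecules and less RNA of a gene cannot be told apart.

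The labels tie no cell to an animal or culture, so the cells of a group stand for 1 sample, differences have no test, and n below counts cells. Differences are between group means of log2(TPM + 1), a scale on which low genes differ by less than their true ratio, and each is given with the pooled SD over cells. A gene was called higher or lower where the difference was at least 1 and larger than that SD, among genes averaging at least 1 TPM in one of the groups compared.

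Among host genes, Gas5, Snhg6 and Snhg3 had the highest medians in WT NMK cells. In WT MK cells Snhg15 (310.65 TPM) and Snhg1 (304 TPM) had medians above those of Gas5 and Snhg3. Gas5, a growth-arrest transcript whose introns carry several C/D box snoRNAs, had medians of 529.3 TPM in WT NMK (153.7 to 1096.5), 295.2 in WT MK (228.7 to 345.7), 373.1 in KO NMK (0 to 463.9) and 96.8 in KO MK cells (90.6 to 650.3). Snhg6, the host of Snord87, had medians of 307 TPM in WT NMK (67.3 to 1129.5), 310.6 in WT MK (242.7 to 471.2), 152.2 in KO NMK (0 to 378.2) and 129.7 in KO MK cells (89.3 to 194.1). Snhg3, the host of the Snora73 pair, had medians of 292.9 TPM in WT NMK (131.6 to 955.3), 255.35 in WT MK (76.4 to 404.2), 83.8 in KO NMK (0 to 590.2) and 118.4 in KO MK cells (51.3 to 217.2). These 3 were the only named hosts at 1 TPM or more in every WT NMK cell. At the other end, Snhg18 never reached 1 TPM, Snhg11 did so in 1 KO MK cell (1.2 TPM), and Snhg14, a long imprinted transcript known for its snoRNA clusters in neurons, did so in 2 WT NMK cells (1.7 and 41.3 TPM).

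Hosts were even across the MK cells of the wild type and uneven across NMK cells, as were genes in general. All 13 hosts averaging at least 10 TPM in some group were at 1 TPM or more in all 6 WT MK cells, against 63.2% of their values in WT NMK, 57.4% in KO NMK and 83.1% in KO MK cells. Over all 7196 genes chosen by the same level, the shares were 88.2% in WT MK, 66.2% in WT NMK, 61.1% in KO NMK and 84.0% in KO MK cells. In NMK cells a host could be high in a few cells and at 0 in the rest. Snhg12, the host of 4 snoRNA rows, was at 57.2, 58.6 and 154.6 TPM in 3 WT NMK cells and at 0 in the other 6, and at 31.4 to 104.5 TPM in every WT MK cell. Snhg10 was at 174 TPM in 1 WT NMK cell and 0 in the other 8, and at 6.9 to 46.3 TPM in every WT MK cell. The coefficient of variation of Gas5 was 15.1% in WT MK and 44.6% in WT NMK cells, and that of Snhg6 was 24.4% and 91.1%. Its median over the 13 hosts was 51.8% in WT MK, 134.8% in WT NMK, 138.7% in KO NMK and 94.7% in KO MK cells, beside 35.2%, 99.98%, 110.6% and 61.0% over all genes of that level. The alike libraries among the WT MK cells enter each of these values.

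**Figure D1:**
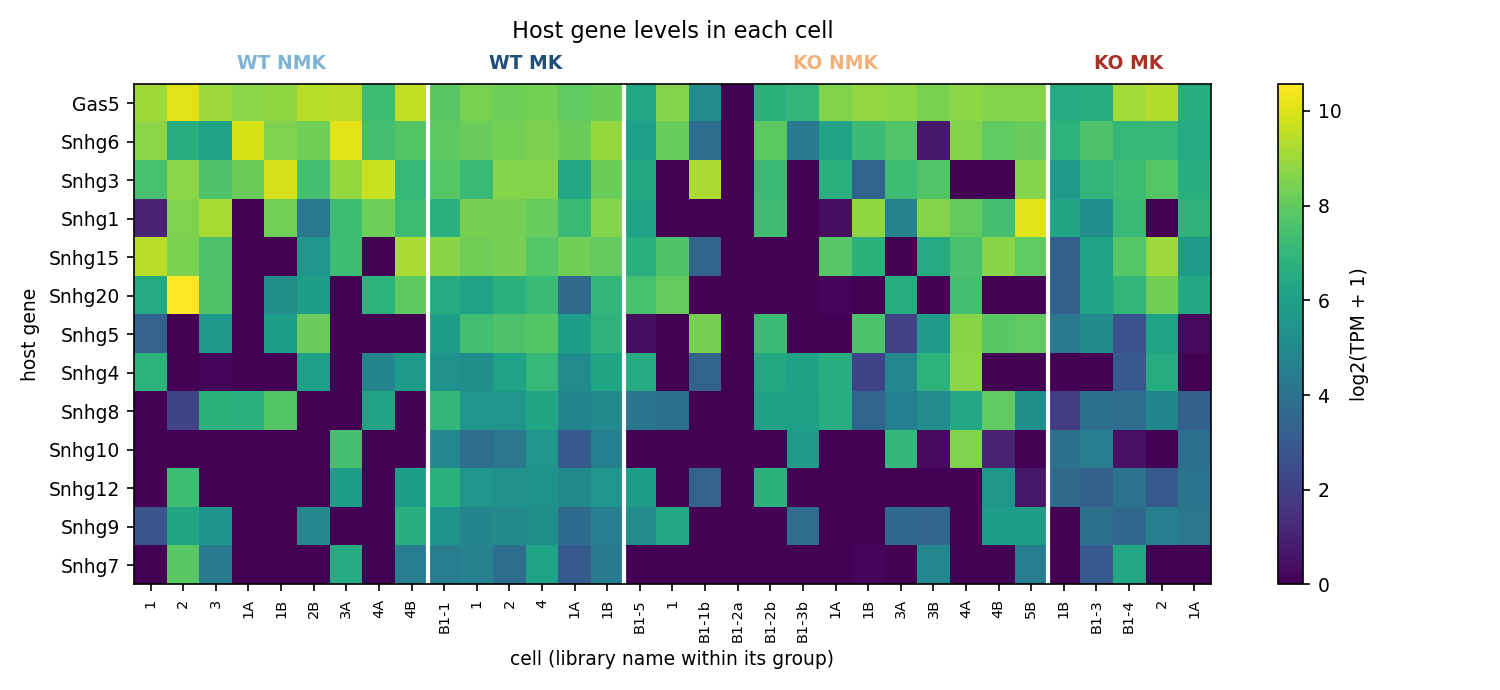
Level of the 13 named host genes (rows, ordered by mean TPM) in each of 33 cells (columns, by group), as log2(TPM + 1); dark purple is 0. The WT MK block is filled for every host, while NMK cells alternate between high values and 0, and KO NMK cell B1-2a is at 0 for all 13.

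Between WT MK and WT NMK cells, 4 of 15 tested hosts were called higher and 0 lower, which is a share near that of all genes, of which 25.6% were called higher and 3.33% lower. Snhg5, the host of Snord50 genes, was at 58.6 to 211.4 TPM in WT MK cells (median 140.2) and at 0 to 280.8 TPM in WT NMK cells (median 0), a difference of 4.34 (SD 2.61). The ranges overlapped, since WT NMK cell 2B had the highest value of both groups. Snhg10 (3.51, SD 2.03), Snhg12 (3.47, SD 2.54) and Snhg4 (3.22, SD 2.49) were also called. The median difference was 1.89 over hosts and 0.70 over all genes tested. Gas5 went the other way: WT MK cells averaged 290.65 TPM ± 44.0 (SD, n = 6) against 591.2 TPM ± 263.8 (SD, n = 9) for WT NMK cells, a difference of -0.88 (SD 0.64) that was under the size required for a call.

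The host score, the mean log2(TPM + 1) over 15 hosts, was 5.73 ± 0.47 (SD, n = 6) in WT MK and 4.11 ± 0.88 (SD, n = 9) in WT NMK cells, a difference of 1.62 (SD 0.75). WT MK cells ran from 4.88 to 6.31 and WT NMK cells from 2.24 to 5.11, with a small overlap. The summed TPM of the hosts did not follow the score, with 1921 ± 400 (SD, n = 6) in WT MK and 2358 ± 849 (SD, n = 9) in WT NMK cells. Taking the log2 ratio of mean TPM turned the direction, with a mean difference over hosts of -0.21 and 0 hosts called higher, beside 15.9% of all genes. The 4 called hosts each had a higher mean TPM in WT MK cells (Snhg5 134.2 against 44.2 TPM), while Gas5, Snhg6 and Snhg3, seen in every cell of both groups, had a lower one. The same score in the full table, which adds 13 libraries that the authors left out, differed by -0.18.

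**Figure D2:**
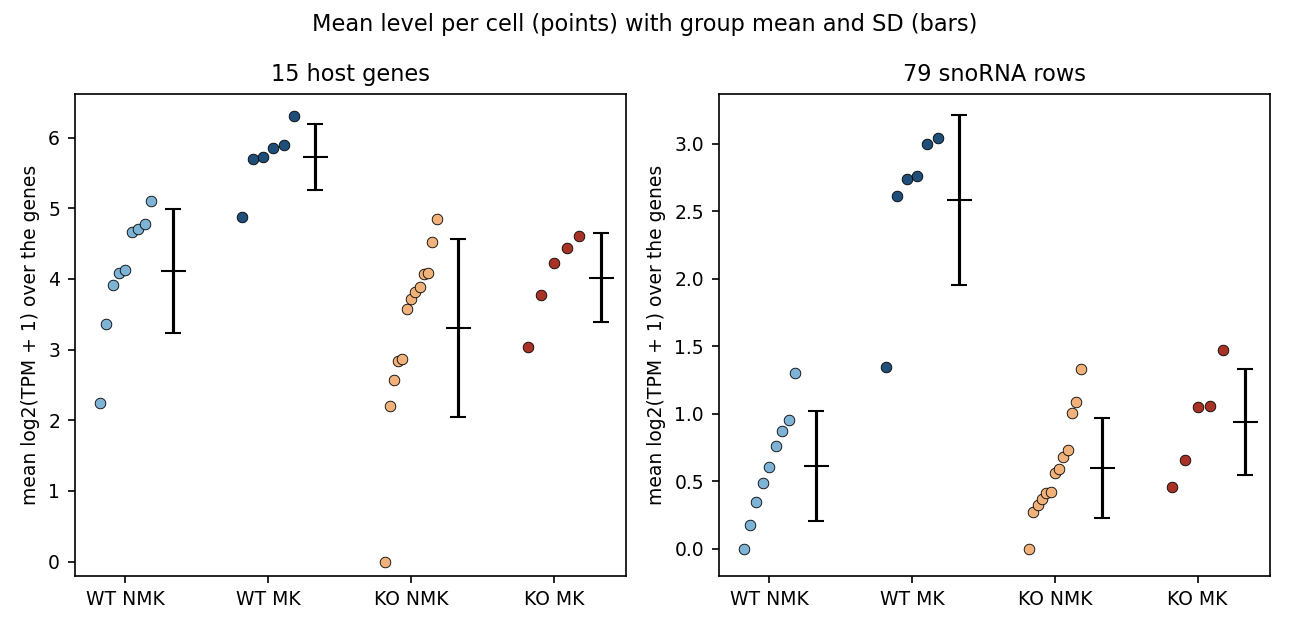
Mean log2(TPM + 1) per cell (points) over 15 host genes (left) and 79 snoRNA rows (right) by group, with the group mean and SD as bars. WT MK cells hold the 5 highest host scores and the 5 highest snoRNA scores, and no KO MK cell reaches the lowest WT MK host score. The 79 rows averaged at least 1 TPM in some group, which lets in rows through WT MK cells alone.

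Between the MK groups, most host genes were lower in the knockout. Of 14 hosts tested, 11 were called lower and 0 higher in KO MK against WT MK cells, where 7.07% of all genes were called lower and 9.74% higher. The median difference was -1.82 over hosts and 0.09 over all genes tested. The highest KO MK host score (4.61) was below the lowest WT MK score (4.88), so the groups did not overlap, and the means differed by -1.71 (SD 0.55). The 2 KO MK cells with low Pf4 had the highest scores of their group, 4.61 (B1-4) and 4.43 (cell 2), and the other 3 had 3.04, 4.23 and 3.78. Without those 2 cells 11 of 14 hosts were called lower, beside 8.29% of all genes, and 9 hosts were called lower both ways. Snhg10 (-0.24) and Snhg17 (-0.55) lost the call, and Gas5 (-1.62, SD 0.19) and Snhg3 (-1.35, SD 0.86) gained it. Some markers of other cell types were called higher in the same comparison, beside the 9.74% of all genes. Of 3 erythroid genes and 1 mast and basophil gene tested, 0 were called, and 0 lymphoid genes were tested. Stem and progenitor genes summed to 123.7 to 1535.5 TPM in KO MK and 71.7 to 158.4 TPM in WT MK cells, with 2 of 5 called higher. Granulocyte-monocyte genes summed to 271.7 to 2057.1 TPM in KO MK and 108.2 to 282.4 TPM in WT MK cells, with 1 of 2 (Lyz2) called higher and Mpo under 1 TPM in every KO MK cell. Their part in the host difference was not tested.

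Snhg6 was at 113.1, 194.1, 129.7, 130.7 and 89.3 TPM in the 5 KO MK cells, and at 242.7, 280.4, 331.8, 352.2, 289.4 and 471.2 TPM in the 6 WT MK cells, at a lowest, median and highest of 242.7, 310.6 and 471.2. No cell of one group reached the other, and the difference was -1.33 (SD 0.37). Snhg12 was at 11.7, 8.2, 15.4, 6.7 and 15.8 TPM in KO MK cells and at 31.4 to 104.5 TPM (median 42.7) in WT MK cells, again without overlap, with a difference of -1.998 (SD 0.55). Snhg8, the host of Snora24, was at 2.6 to 27.7 TPM in KO MK and 27.5 to 125.9 TPM in WT MK cells, with ranges that touched only at the ends, and differed by -2.15 (SD 0.94). These 3 hosts had the smallest spread relative to their difference.

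The larger differences came from hosts at or near 0 in some KO MK cells. Snhg4 was at 0 TPM in 3 KO MK cells and at 6.9 and 90.9 TPM in B1-4 and 2, the cells with low Pf4, against 33.2 to 130.8 TPM in WT MK cells, a difference of -3.94 (SD 2.01). Snhg5 was at 18, 32.1, 5.4, 67.8 and 0.2 TPM in KO MK cells and 58.6 to 211.4 TPM in WT MK cells, a difference of -3.23 (SD 1.64). Snhg1 was at 74.3, 34.8, 139.8, 0 and 115.5 TPM in KO MK cells and 102.8 to 384.7 TPM in WT MK cells, a difference of -2.82 (SD 2.04). For Snhg4 and Snhg5, 1 KO MK cell lay inside the WT MK range, and for Snhg1 2 did. Snhg7 (-2.52, SD 2.04), Snhg15 (-1.86, SD 1.47), Snhg10 (-1.78, SD 1.57), Snhg9 (-1.57, SD 1.31) and Snhg17 (-1.004, SD 0.85) were the others called lower.

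**Figure D3:**
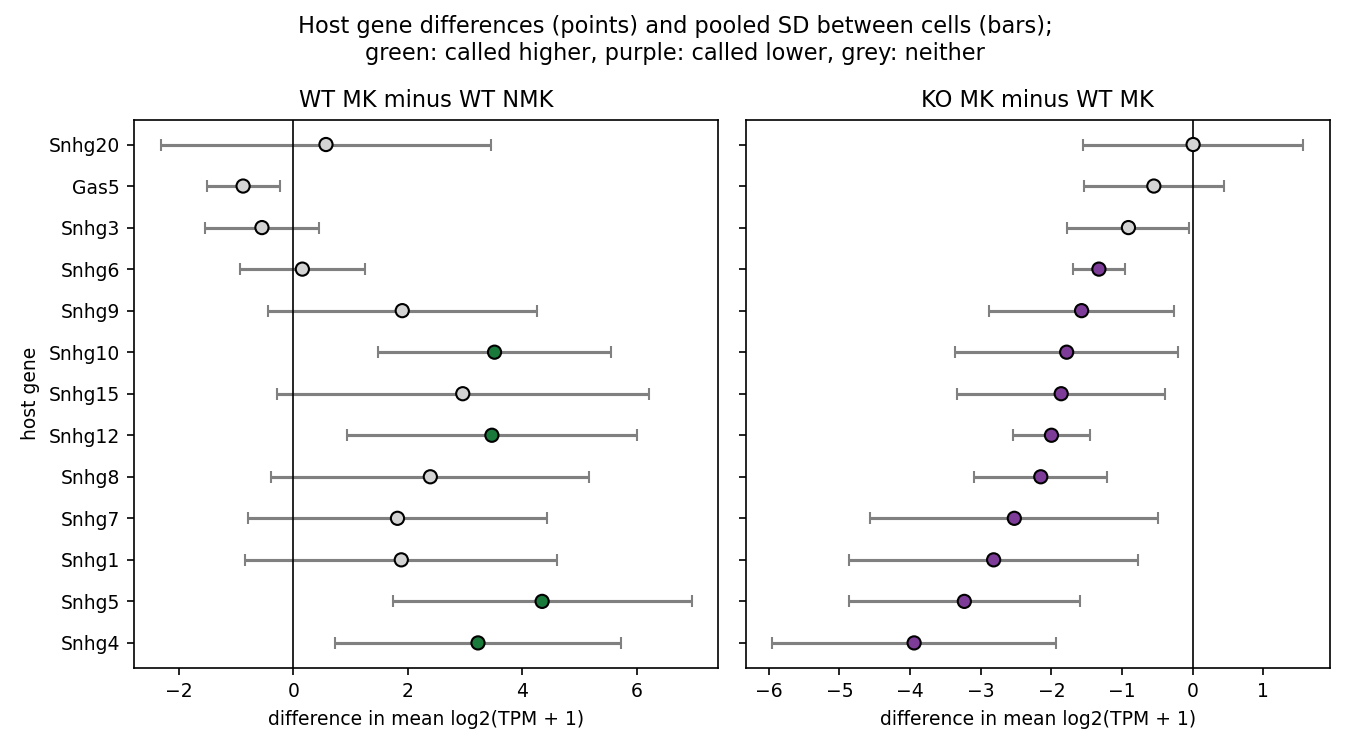
Difference in mean log2(TPM + 1) for the 13 named hosts (points) with the pooled SD between cells (bars), for WT MK minus WT NMK (left) and KO MK minus WT MK (right). On the right, 10 of the 13 are called lower (purple) and Snhg20, Gas5 and Snhg3 are not (grey); on the left 4 are called higher (green).

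Snhg3 (-0.91, SD 0.86), Gas5 (-0.55, SD 0.99) and Snhg20 (0.01, SD 1.56) were not called. For Gas5 the KO MK cells did not form 1 group. It was at 90.6, 96.8 and 91.7 TPM in the 3 cells with Pf4 at 13752 TPM or more, below every WT MK cell, and at 551.9 and 650.3 TPM in the other 2, above every WT MK cell. Snhg15 and Snhg20 split in the same order, with 8.6 to 68.5 and 8.6 to 81.8 TPM in the 3 cells with Pf4, and 219.6 and 515 (Snhg15) and 123.3 and 305.1 TPM (Snhg20) in the other 2. Snhg6 and Snhg12 did not split this way. The 9 megakaryocyte markers took 1.76% to 5.32% of all TPM in the 3 KO MK cells with Pf4 and 1.31% to 2.16% in WT MK cells. The effect of abundant megakaryocyte transcripts on the TPM of hosts was not tested.

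**Figure D4:**
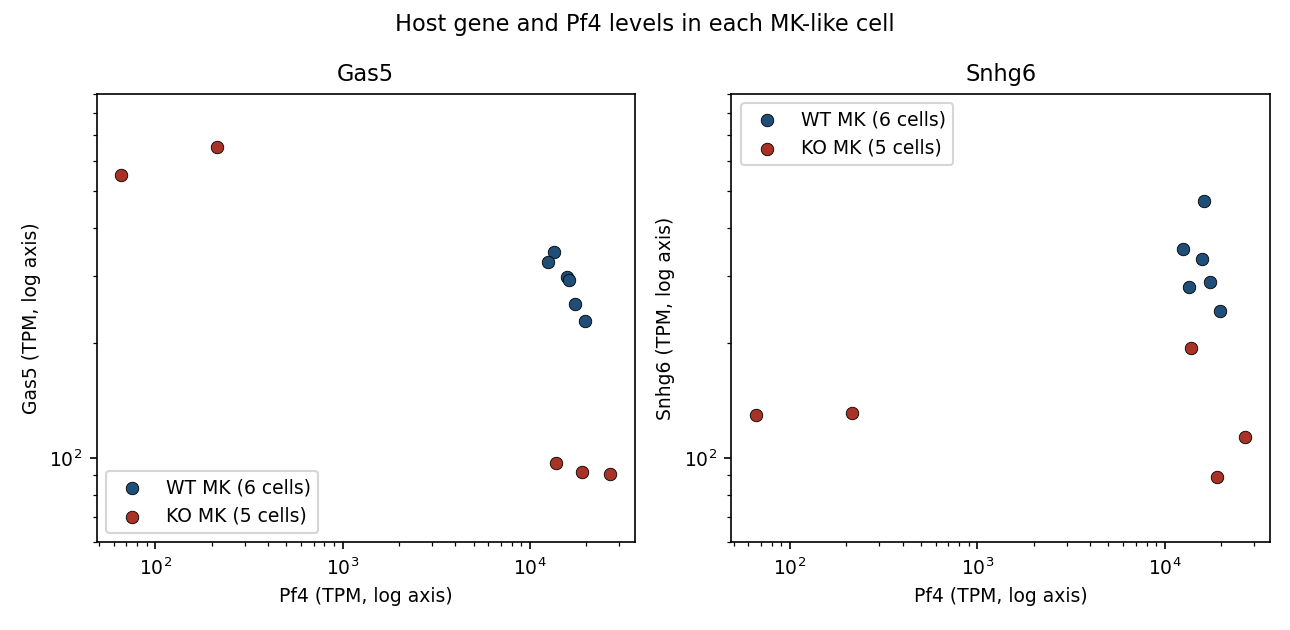
Gas5 (left) and Snhg6 (right) against Pf4 in each MK-labelled cell, in TPM on log axes. For Gas5, 3 KO MK cells at high Pf4 lie below all WT MK cells and 2 at low Pf4 lie above them, while for Snhg6 all 5 KO MK cells lie below all 6 WT MK cells.

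The number of hosts called lower in KO MK cells depended on the scale and the libraries. A pseudocount of 10 gave 7 of 14, beside 1.94% of all genes, and the log2 ratio of mean TPM gave 4, beside 6.23%. Summed host TPM overlapped, at 393.4 to 2033.4 in KO MK and 1263.1 to 2326.4 in WT MK cells. Averaging the 5 alike WT MK libraries into 1 left 10 of 14 hosts called lower, beside 9.30% of all genes, with a score difference of -1.78. Libraries without the B1 prefix gave 12 of 14 hosts, beside 11.4% of all genes. B1 libraries hold only 1 WT MK cell, and there Snhg7 turned to 0.26. With the libraries of the full table, hosts called lower numbered 0, beside 0.299% of all genes, and the score difference was -0.57. The MK libraries added there had 0.885% to 95.5% mitochondrial TPM.

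Among NMK cells the genotypes were closer. Of 15 hosts tested, 1 was called lower and 0 higher in KO NMK against WT NMK cells, where 2.19% of all genes were called lower and 2.52% higher. The host called lower was Snhg3, which was at 131.6 to 955.3 TPM in every WT NMK cell, and at 1 TPM or more in 8 of 13 KO NMK cells (median 83.8, highest 590.2). The difference was -3.97 (SD 3.03), and -4.02 (SD 2.80) without KO NMK B1-1b and B1-2a. Gas5 was at 275.7 TPM ± 174.4 (SD, n = 13) in KO NMK cells and at 322.8 TPM ± 143.4 (SD, n = 11) without those 2 libraries, against 591.2 TPM ± 263.8 (SD, n = 9) in WT NMK cells. The difference without them was -0.92 (SD 0.87), and the ranges overlapped. The host score differed by -0.80 (SD 1.12), and by -0.43 (SD 0.82) without the 2 libraries.

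In the knockout, 1 of 14 hosts was called higher and 0 lower in KO MK against KO NMK cells, where 13.3% of all genes were called higher and 0.614% lower. This was Snhg20, at 8.6 to 305.1 TPM in all 5 KO MK cells and at 1 TPM or more in 4 of 13 KO NMK cells, a difference of 3.91 (SD 3.22). The host score differed by 0.71 (SD 1.13), and by 0.34 (SD 0.74) without KO NMK B1-1b and B1-2a. Without them Snhg8 was also called lower (-1.86, SD 1.28), beside 3.35% of all genes. KO MK cells averaged 13.2 TPM ± 9.27 (SD, n = 5) of Snhg8 against 62.5 TPM ± 68.8 (SD, n = 11) for KO NMK cells. The comparison of KO MK with WT MK and that of WT MK with WT NMK share the WT MK cells, and the values above are each comparison's own.

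snoRNA rows were sparse outside WT MK cells. Of the 114 rows, 24 were listed at 0 in all 33 cells, 8 reached 1 TPM in 1 cell, 62 in 2 to 9 cells and 20 in 10 or more. Rows at 1 TPM or more numbered 36 to 62 per cell in WT MK (median 57.5), 9, 39, 14, 14 and 19 in KO MK cells 1B, B1-3, B1-4, 2 and 1A, 0 to 15 in WT NMK (median 7) and 0 to 16 in KO NMK cells (median 8). KO MK cell B1-3 lay above the lowest WT MK cell, 1A (36 rows), and the other 4 KO MK cells lay below all WT MK cells. The number of all genes at 1 TPM or more was 9022 to 10815 in WT MK and 8385 to 10496 in KO MK cells, so the rows differed more than the genes did between the MK groups. The rows made up 0.363% to 0.687% of the genes at 1 TPM or more in WT MK cells, 0.095% to 0.372% in KO MK, up to 0.209% in WT NMK and up to 0.228% in KO NMK cells. The part of capture in these counts was not tested.

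**Figure D5:**
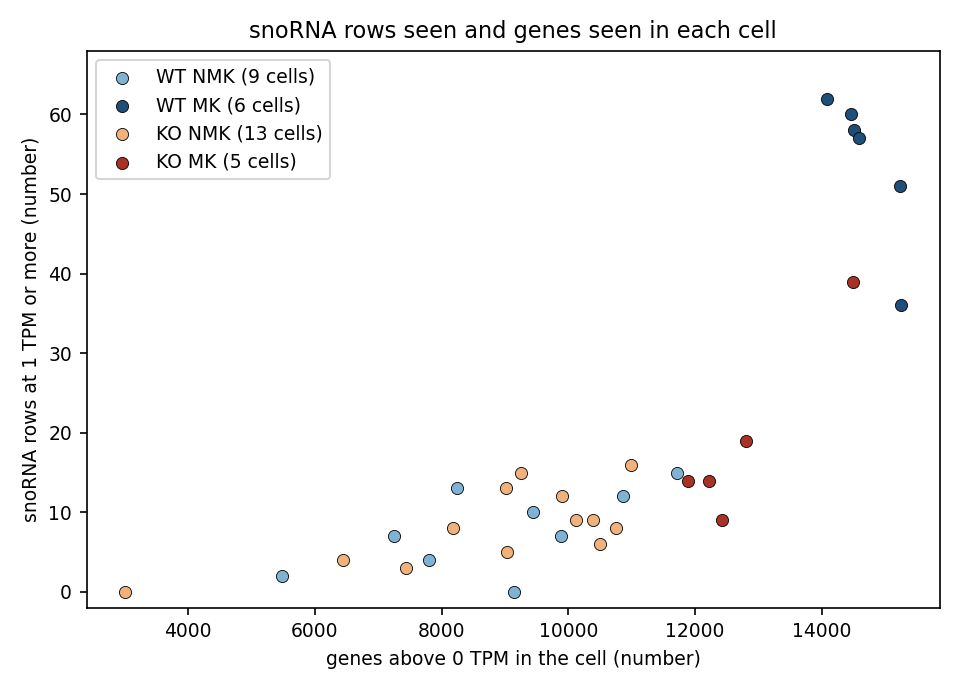
Number of snoRNA rows at 1 TPM or more against the number of genes above 0 in each of 33 cells. The 6 WT MK cells (dark blue) have 36 to 62 rows, 4 of the 5 KO MK cells (red) have 9 to 19, and all NMK cells have 16 or fewer.

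Rows seen in NMK cells stood at higher values than rows seen in MK cells. Where a row was seen, its median level was 87.05 TPM in WT NMK and 87.8 TPM in KO NMK cells, and 12.65 TPM in WT MK and 11.8 TPM in KO MK cells. The summed snoRNA TPM was 1258 ± 421 (SD, n = 6) in WT MK, 1438 ± 1962 (SD, n = 9) in WT NMK, 1233 ± 1063 (SD, n = 13) in KO NMK and 578.7 ± 407.3 (SD, n = 5) in KO MK cells. TPM divides by length, so that a few reads on a row of about 100 bases give a high value; the number of reads is unknown.

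Of 77 rows tested, 45 were called higher and 0 lower in WT MK against WT NMK cells, beside the 25.6% of all genes called higher. Of the 77, 40 rows passed the filter through WT MK cells alone and could only be called higher or not at all (32 were higher), and 13 of the 37 that passed in both groups were higher. The snoRNA score, over 79 rows, was 2.58 ± 0.63 (SD, n = 6) and 0.61 ± 0.41 (SD, n = 9), a difference of 1.97 (SD 0.50). The lowest WT MK cell (1.34) was just above the highest WT NMK cell (1.30). The 79 rows averaged at least 1 TPM in some group, so rows let in by WT MK cells alone raise the score there. With no filter the difference was 1.40 (SD 0.35). The score against KO MK cells below uses the same rows. Of 78 rows tested, 38 were called lower and 0 higher in KO MK against WT MK cells, beside the 7.07% of all genes called lower. Here 38 rows passed through WT MK cells alone (26 lower), and 12 of the 39 that passed in both groups were lower. The scores differed by -1.64 (SD 0.54), with KO MK cells at 0.45 to 1.47 and WT MK cells at 1.34 to 3.04. WT MK cell 1A alone overlapped; without it the difference was -1.89. In KO MK against KO NMK cells 7 of 54 rows were called higher and 0 lower, where 13.3% of all genes were higher. In KO NMK against WT NMK cells 0 of 47 were called higher and 2 lower, Snord104 and Snord12, where 2.19% of all genes were lower. Without KO NMK B1-1b and B1-2a neither was called (Snord12 -2.52, SD 2.65). Of 47 rows 1, Snora73b, was then called higher (2.91, SD 2.71), beside 10.2% of all genes. Snora73b averaged 0.289 TPM in WT NMK cells, so there it passed the filter through KO NMK cells alone.

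The row seen in the most cells was Snord13, which has its own transcription unit and was at 1 TPM or more in 23 of 33 cells. It was at 0 to 109 TPM in WT NMK (median 49.6), 0 to 33 in WT MK (median 2.3), 0 to 109.4 in KO NMK (median 1.7) and 0 to 71.9 TPM in KO MK cells (median 9.3), and it was called in no comparison. Snord118, also without a holding gene, was seen in all 5 KO MK cells at 4.8 to 12.4 TPM, in 4 of 6 WT MK cells at up to 13.3 TPM and in 3 of 13 KO NMK cells. Snord104 was at 75.6 to 328.6 TPM in 5 of 9 WT NMK cells, 5.4 to 65.2 TPM in all WT MK cells, up to 37.3 TPM in 3 of 13 KO NMK cells and up to 16.2 TPM in 3 of 5 KO MK cells. It was called lower in both knockout comparisons (-3.09, SD 1.504 for MK and -2.85, SD 2.81 for NMK), and not among NMK cells without KO NMK B1-1b and B1-2a (-2.67, SD 2.94).

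Snord47, in Gas5, was at 15.8 to 180.2 TPM in all 6 WT MK cells (median 105.05), at 112.6, 9.9, 128.9, 0 and 0 TPM in KO MK cells, at 1315.7 TPM in 1 WT NMK cell and at 388 to 878.7 TPM in 4 KO NMK cells. Its 14 cells all had Gas5, with a median of 312.45 TPM, against 434.5 TPM in the cells without the row. These medians mix groups with unlike Gas5 levels. The 1 WT NMK cell with the row had the highest Gas5 of its group (1096.5 TPM). In the 4 KO NMK cells with it, Gas5 was at 384.2, 108.6, 396.1 and 398.1 TPM, in a group with a median of 373.1 TPM. In KO MK cell 2, Gas5 was at 650.3 TPM and Snord47 at 0. Snhg1, the holder of Snord22, had a median of 316.8 TPM in the 13 cells with that row and 46.85 TPM in those without. These medians mix groups too. Both rows overlap exons of their hosts, and reads could have been assigned to either gene.

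Snora73b, in Snhg3, was at 10.4 to 87.5 TPM in all WT MK cells (median 54.1), at 11.8 TPM in 1 KO MK cell and 0 in the other 4, at 2.6 TPM in 1 WT NMK cell and 0 in the other 8, and at 83.7 to 152.2 TPM in 5 KO NMK cells. WT MK and WT NMK cells did not overlap (5.23, SD 0.83), although Snhg3 itself had a higher mean TPM in WT NMK (403.4) than in WT MK cells (254.2). Snora73b averaged 0.289 TPM in WT NMK cells, so against these it passed the filter through WT MK cells alone. The difference between KO MK and WT MK cells was -4.70 (SD 1.36), against -0.91 for Snhg3. Snora73b lies outside the annotated exons of Snhg3, and Snord87, in an intron of Snhg6, was at 21.3 to 79.3 TPM in 4 of 6 WT MK cells and at no more than 1.9 TPM in any other cell, although Snhg6 was widely seen. Snord87 averaged 0.211 TPM in WT NMK and 0.3 TPM in KO MK cells, so against both it passed the filter through WT MK cells alone.

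Rows without overlap between groups were named after their values were seen, and were not counted or set beside a share of all genes. They included rows held by ribosomal protein genes and by Snhg genes. Snord42b, Snord33 and Snora78 averaged 0 TPM in WT NMK cells, so against these they passed the filter through WT MK cells alone. The same holds against KO MK cells for Snord33 and Snora24, which averaged 0 TPM there, and for Snora78 (0.14 TPM). Of 7196 genes averaging at least 10 TPM in some group, 81.7% were seen in every WT MK cell and 27.3% in every WT NMK cell. Snord42b, held by Rpl23a, was at 17.2 to 46.5 TPM in WT MK cells, at 0 in all WT NMK and KO NMK cells, and at 7.8 TPM in 1 KO MK cell. Snord33, held by Rpl13a, was at 5.3 to 34.1 TPM in WT MK cells, at 0 in all WT NMK and KO MK cells, and at 71.9 TPM in 1 KO NMK cell. In WT NMK cells the holders were abundant, with Rpl23a at 1473 to 2889 TPM and Rpl13a at 1799 to 2988 TPM. Snora78, in Snhg9, was at 1 to 17.3 TPM in WT MK cells and under 1 TPM in every other cell. Its highest value elsewhere was 0.7 TPM, in KO MK cells, so the gap was narrow. Snora24, in Snhg8, was at 1.8 to 53.3 TPM in WT MK cells and 0 in all KO MK cells. It was also seen at 127.3 TPM in 1 of 9 WT NMK cells and at 312.5 TPM in 1 of 13 KO NMK cells.

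By holding gene, the rows divided into 18 in Gas5 or Snhg genes, 32 in ribosomal protein genes, 46 in other protein-coding genes, 12 in other noncoding genes, 5 with no holder and 1 (Snord116) not found in the annotation. Rows seen in at least 1 cell were 29 of 32 in ribosomal protein genes, 14 of 18 in Gas5 or Snhg genes, 32 of 46 in other protein-coding genes and 5 of 5 without a holder. Per cell, rows in ribosomal protein genes numbered 20.7 on average in WT MK (14 to 24), 6 in KO MK (2 to 12), 1.89 in WT NMK (0 to 4) and 2.54 in KO NMK cells (0 to 7). Rows in Gas5 or Snhg genes numbered 10 in WT MK (7 to 13), 3.8 in KO MK (2 to 9), 0.778 in WT NMK (0 to 2) and 1.62 in KO NMK cells (0 to 4). The order of the groups was thus alike for both of these kinds of holder. In the other classes KO NMK cells did not exceed WT NMK cells. Rows in other noncoding genes averaged 6.5 in WT MK, 2.4 in KO MK, 1.33 in WT NMK and 0.692 in KO NMK cells. For other protein-coding genes the averages were 13.8, 4, 2.33 and 2.31, and for rows without a holder 3, 2.8, 1.44 and 1.15. Of the rows that overlap an exon of their holder, 46 of 52 were seen, and of those in introns only, 36 of 52. Where a row with a holder was seen in a cell, the holder was at 1 TPM or more in the same cell 526 times and below it 11 times. Of the 526, 204 were for ribosomal protein genes. Holders were also seen without their rows: Nop58 reached 1 TPM in 32 cells, while its row Snord70 did so in 0. A link between row and holder was not tested.

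Of the 90 rows seen, 27 (30%) were at 1 TPM or more in WT cells and in no KO cell, and 1 (1.11%) the other way round. Over all 18386 genes seen, 9.78% were seen in WT cells only and 17.2% in KO cells only. Among the rows, 19 of the 27 were seen in WT MK cells alone, the cells with the most genes above 0. Snord12, held by the noncoding gene Zfas1, had the most WT cells of these. It was at 25.6, 348.7 and 719.9 TPM in 3 of 9 WT NMK cells, at 28.8 to 87.4 TPM in 5 of 6 WT MK cells and listed at 0 in all 18 KO cells, which include KO NMK B1-1b and B1-2a. Zfas1 itself was seen in 9 of 13 KO NMK cells and all 5 KO MK cells, where it averaged 63.6 TPM ± 73.9 (SD, n = 13) and 124.5 TPM ± 176.8 (SD, n = 5). WT NMK cells averaged 176.8 TPM ± 155.6 (SD, n = 9) and WT MK cells 105.2 TPM ± 27.8 (SD, n = 6), and the gene was called in no comparison.

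The proteins that bind snoRNAs were lower together with the hosts in KO MK cells. All 8 core proteins measured were called lower in KO MK against WT MK cells, beside 7.07% of all genes. Their median difference was -1.35, beside 0.09 over all genes. Nhp2, an H/ACA protein, averaged 409.8 TPM ± 129.6 (SD, n = 5) against 1189 TPM ± 359 (SD, n = 6), a difference of -1.52 (SD 0.55). Nop56, a C/D protein, was at 27.5 TPM ± 8.96 (SD, n = 5) and 57.4 TPM ± 18.9 (SD, n = 6), a difference of -1.01 (SD 0.56). Fbl, the methyltransferase, differed by -1.30 (SD 0.84) and Dkc1, the pseudouridine synthase, by -1.30 (SD 0.81). Without KO MK B1-4 and 2, 7 of 8 were called lower, beside 8.29% of all genes. With the alike WT MK libraries averaged, 4 of 8 were, beside 9.30%. Of the other 3 comparisons, WT MK against WT NMK had 2 of 8 called higher, near the 25.6% of all genes (0 higher and 2 lower with those libraries averaged). In KO MK against KO NMK cells 1 of 8 (Dkc1) was lower, beside 0.614% of all genes. In KO NMK against WT NMK cells 1 of 8 (Nop10) was lower, beside 2.19%.

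Without KO NMK B1-1b and B1-2a, 4 of 8 core proteins were called lower in KO MK against KO NMK cells, beside 3.35% of all genes. In KO NMK against WT NMK cells 1 of 8 was then called higher, near the 10.2% of all genes, and 0 lower. Assembly and cap factors were called lower in KO MK against WT MK cells for 4 of 13 (1 of 13 with the alike libraries averaged), beside 7.07% of all genes, among them Naf1, an H/ACA assembly factor (-1.97, SD 1.27). Factors of nonsense-mediated decay, which removes host exons, were called lower for 2 of 14, among them Casc3 (-1.26, SD 1.07). None of the 14 was called higher, and the shares of all genes were 7.07% lower and 9.74% higher. Their score differed by -0.40 (SD 0.35), while Eif4a3, of the same list, differed by -0.03 (SD 0.33). Cytosolic ribosomal protein genes were called lower for 7 of 78, a share near the 7.07% of all genes, and all 78 differences were below 0, with a score difference of -0.72 (SD 0.30); without KO MK B1-4 and 2, 40 of 78 were called lower, beside 8.29% of all genes. The 12 housekeeping genes had 0 calls in either direction and a score difference of 0.26 (SD 0.21). Without those 2 cells 3 were higher and 1 lower, beside 15.4% and 8.29% of all genes.

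Ribosomal protein genes and many snoRNA hosts begin with a C followed by a pyrimidine run, the terminal oligopyrimidine start known from translational control. Since most hosts differed together between the MK groups, their starts were read from RefSeq (GRCm38.p6), where 15 of the 17 hosts had 17 starts. A start with C as its first base and at least 5 pyrimidines in a row was found for Gas5, Snhg7 and Snhg8, 3 of 15 hosts (20%), for 22.4% of 58 ribosomal protein genes and for 3.01% of the 27025 genes with a RefSeq start. Windows of 20 bases before and 20 from the start are printed 5′ to 3′ on the gene's strand, with the pyrimidine run at the start in capitals and Snhg1, whose run is 3 bases, for comparison.
Gas5: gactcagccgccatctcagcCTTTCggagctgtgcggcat
Snhg7: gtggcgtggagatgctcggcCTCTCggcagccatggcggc
Snhg8: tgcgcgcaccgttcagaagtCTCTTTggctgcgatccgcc
Snhg1: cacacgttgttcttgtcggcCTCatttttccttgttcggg

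The windows are at chr1:161035146-161035185 on the plus strand for Gas5 (the second of 2 starts), chr2:26640225-26640264 on the minus strand for Snhg7, chr3:123508317-123508356 on the minus strand for Snhg8 and chr19:8723467-8723506 on the plus strand for Snhg1. Of these hosts, Snhg7, Snhg8 and Snhg1 were called lower in KO MK against WT MK cells and Gas5 was not. Of the hosts whose groups did not overlap there, Snhg6 was not matched to a RefSeq start, and the start of Snhg12 has T as its first base. A match describes these letters only.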

How the data were processed

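For the single-cell SMART-Seq reads, the submitters' processing notes name cutadapt 1.9.1, FastQC 0.11.7, STAR 2.6.1e, featureCounts 1.6.2 and the build mm10. The authors deposited TPM values, given to 1 decimal, for 46 libraries and again for the 33 kept after outliers were removed; the annotation, strand setting, step to TPM and outlier rule were not given in the sources used here. The labels list 90 samples; 44 of these were not analysed here. In addition, 1 column was not used. Values were compared as log2(TPM + 1), with a pseudocount of 1 and a minimum mean of 1 TPM. Hosts were named where some group averaged at least 10 TPM; named snoRNA rows, at most 15, reached 1 TPM in 10 or more cells; lists give at most 2 genes per comparison, those with the highest and lowest difference. Snhg11, Snhg14, Snhg17, Snhg18, Snord12, Snord87, Snora73a, Fbl, Dkc1 and Zfas1 were named beside these after their values were seen. Members and lists were chosen with earlier results of these data known. Positions are from GENCODE M21 (128 of 131 members matched by symbol) or RefSeq. Calculations were tested on simulated data. Python 3.11.15, numpy 2.4.6, pandas 2.3.3 and matplotlib 3.10.9 were used. Alternatives were other pseudocounts, filters, rescalings, summaries and library sets, and leaving out each cell.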

Additional observations from a re-analysis of the deposited data

Results flagged for a closer look

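In 93 groups of 4 to 10 cells, 24 had a lowest or highest cell far from the rest of its group. The rule flags about 1 in 20 groups of independent normal values. Many values here are 0 and the same cells recur, so the 24 cannot be set against that rate. In 7 of the 24 all other cells of the group were at 0. WT MK cell 1A had the lowest snoRNA score, 1.34, with the others at 2.61 to 3.04. It also had the lowest Snhg20 (11.7 TPM, others 68 to 143.9), Snord104 (5.4 TPM, others 33.4 to 65.2) and Snord47 (15.8 TPM, others 102.3 to 180.2). WT MK cell B1-1 had the highest Snhg12 (104.5 TPM, others 31.4 to 44.8) and the lowest Snord55 (3.5 TPM, others 12.8 to 24.3), and WT MK cell 2 the highest Snora81 (5.9 TPM, others at most 0.7).

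Among KO MK cells, 1B was lowest for Snhg9 (0 TPM, others 10.4 to 21.9). Cell 2 was lowest for Snhg1 (0 TPM, others 34.8 to 139.8) and Snora68 (0 TPM, others 52.1 to 63.6), and B1-4 for Snord16a (0 TPM, others 28.5 to 43.2) and Snora7a (0 TPM, others 32.8 to 54.1). B1-3 was highest for Snora73b (11.8 TPM, others 0) and Snord55 (10.3 TPM, others at most 0.8), and 1A for Snora65 (33.3 TPM, others at most 0.9).

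Among WT NMK cells, Gas5 was lowest in 4A (153.7 TPM, others 421.2 to 1096.5). The other 8 were single high cells: Snhg10 in 3A (174 TPM), Snord47 in 2 (1315.7 TPM), Snord22 in 1B (613 TPM), Snora73b in 1 (2.6 TPM), Snora65 in 3 (30.2 TPM) and Snord55 in 4A (79.2 TPM), each with all others at 0, and Snora7a in 4B (52.5 TPM, others at most 2.1) and Snord118 in 2B (151.5 TPM, others at most 6).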

How the results depend on the processing

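Values below are differences in score, or numbers of hosts called, and for each the cause of the change was not tested. The share of all genes called changed with the setting too. In WT MK against WT NMK cells 25.6% of all genes were called higher as reported, 3.998% in the full table, 33.7% by medians and 15.9% as ratios. No paired analysis was possible because the results come from no test. For WT MK minus WT NMK cells, the host score was -0.18 in the full table, 2.69 and 0.66 with pseudocounts of 0.1 and 10, and -0.21 as a ratio of mean TPM. The snoRNA score was 0.91, 3.76, 0.62 and 1.17 in the same order, and 1.40 with no filter on low values. The rows seen per cell differed by 23.5 in the full table and 55.2 with alike WT MK libraries averaged. Hosts called higher numbered 0 (full table), 7 (median over cells) and 0 (ratio), and those called lower 1 (full table), 2 (ratio) and 1 (averaged). The shares of all genes called lower were 4.28%, 11.5% and 2.19% in the same order. As ratios, Snord49b was -0.19, Snord16a -0.33, Snord47 -0.47 and Snord22 -0.35.

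For KO MK minus KO NMK cells, the snoRNA score was 0.77 with a pseudocount of 0.1, and hosts called higher numbered 2 there and 0 with 10 or in the full table. By medians 3 were higher and 1 lower, beside 23.5% and 2.15% of all genes. As ratios of mean TPM the host score was -0.55, the snoRNA score -0.48, Snord118 -0.21, and 0 hosts were higher, beside 11.4% of all genes. Without the prefix the snoRNA score was -0.038 and 2 hosts were lower, beside 5.99% of all genes. With B1 alone the host score was 1.91, the snoRNA score 0.92 and the rows 20.7. There 6 hosts were higher and 1 lower, beside 26.6% and 0.582% of all genes. Without KO NMK B1-1b and B1-2a, 1 host was lower, also after median-ratio rescaling, beside 3.35% and 2.53% of all genes. This rescaling and the setting leaving out KO MK B1-4 and 2 were chosen after seeing the data.

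For KO MK minus WT MK cells, the full table gave a host score of -0.57, a snoRNA score of -0.74 and rows of -15.7. It had 0 hosts lower, beside 0.299% of all genes. A pseudocount of 0.1 gave scores of -2.28 and -2.99, and 10 gave -1.07 and -0.58 with 7 hosts lower, beside 1.94% of all genes. The ratio gave a host score of -1.08 with 4 hosts lower, beside 6.23% of all genes. B1 alone gave 6 hosts lower, beside 15.2% of all genes, with Snhg7 at 0.26. For KO NMK minus WT NMK cells, hosts called lower numbered 3 with a pseudocount of 10, 2 as ratios and 2 after rescaling without the low libraries, and 3 were higher by medians. B1 alone gave no value for comparisons with WT NMK cells.

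Leaving out 1 cell at a time, hosts called higher ran from 4 to 7 in WT MK against WT NMK (7 without WT NMK 2) and lower from 0 to 1. In KO MK against KO NMK they ran from 1 to 2 higher and 0 to 1 lower, in KO MK against WT MK from 9 to 12 lower, and in KO NMK against WT NMK from 1 to 3 lower. The share of all genes called was not computed with 1 cell left out. Depth is unknown, so a listed 0 may be a missed molecule.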

Other observations

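Among the 13 libraries that the authors left out, KO NMK B1-1a had 13 hosts and 24 snoRNA rows at 1 TPM or more, a host score of 5.49 and a housekeeping score of 9.75, and its 24 rows exceed those of every NMK cell kept. KO MK library 1, also left out, had Pf4 at 43254 TPM, Gas5 at 154.7 TPM, 3 hosts and 1 snoRNA row. KO MK library B1-1, left out with 71.5% mitochondrial TPM, had 14 hosts and 27 snoRNA rows. WT MK library B1-2 and WT NMK library 4, left out as well, had 0 and 6 hosts at 1 TPM or more.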
